A study of Mus musculus with 6 samples.

Results

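The Adam and Adamts genes encode metalloproteases of the cell surface and of the extracellular matrix, together with the Adamts-like proteins, which share the matrix-binding domains of the Adamts proteases but have no protease domain. All genes were taken whose symbol in the probe-to-gene annotation starts with Adam and a digit or with Adamts. They were 52 of the 18820 genes that at least 1 probe set reads alone, where a probe set is a group of array probes for 1 stretch of transcript. There were 29 Adam, 18 Adamts and 5 Adamtsl genes, with 79 of the 35556 probe sets, and each gene was read from its probe set with the highest mean over the 6 arrays.

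EpRas cells are a line of EpH4 mouse mammary epithelial cells, of BALB/c background, that overexpress Ha-Ras. The 3 long-term EMT samples had been given 2 ng/ml of TGF-β1 over 14 days and the 3 control samples no TGF-β1, and both groups carried Ha-Ras and grew in medium with fetal calf serum. RNA of each sample, 150 ng, was hybridized to its own Affymetrix MoGene array. The samples came from triplicate wells of 1 line, and the study's general statement that experiments were independent and repeated is not tied to the arrays. The p-values therefore measure only the spread between these samples, which may be technical.

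The deposited values are log2 intensities, so that a difference of 1 is a fold of 2, and they are compared between groups for the same gene, never between genes. A gene passed where its fold exceeded 1.5 and its adjusted p in a limma fit over all probe sets was below 0.05, and "rose" and "fell" are used for these genes alone. The background level was 4.475, the 95th percentile of the means of 1006 probe sets for olfactory receptors.

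Adam proteases sit in the cell membrane, where the active members cut other membrane proteins close to the surface and so release growth factors, cytokine receptors and adhesion molecules. Adamts proteases are secreted and act on proteoglycans, procollagens and microfibrils of the matrix. Both kinds are made with a prodomain that convertases of the furin family remove. Some members of both kinds, not all, are held in check by tissue inhibitors of metalloproteases, the Timp proteins. TGF-β is a classical inducer of matrix remodelling in mammary cells that change to a mesenchymal state.

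Of the 52 genes, 5 rose in long-term EMT cells (Adam12, Adam19, Adamts6, Adamts7 and Adamts14), 3 fell (Adamts5, Adamts9 and Adamtsl4) and 44 did not pass. The genes that rose were 9.62% of the family, where 1.47% of all 18820 genes rose, and those that fell were 5.77%, where 1.49% of all genes fell. The counts given below by role, partner list or marker list cover few genes each and are to be read beside these shares. The median log2 fold change was 0.06 over the family and 0.02 over all genes. Every long-term EMT array exceeded every control array for 13 of the 52 genes, beside 2370 of all 18820 genes (12.6%), a higher share in the family. Every long-term EMT array was under every control array for 4 of the 52, beside 2161 of all genes (11.5%), a lower share in the family. Below the background level in both groups were 20 of the 52 genes, 18 of them Adam genes, and 5402 of all 18820 genes. In RNA from whole cultures, fewer cells that express a gene and less RNA of it per cell cannot be told apart.

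**Figure D1:**
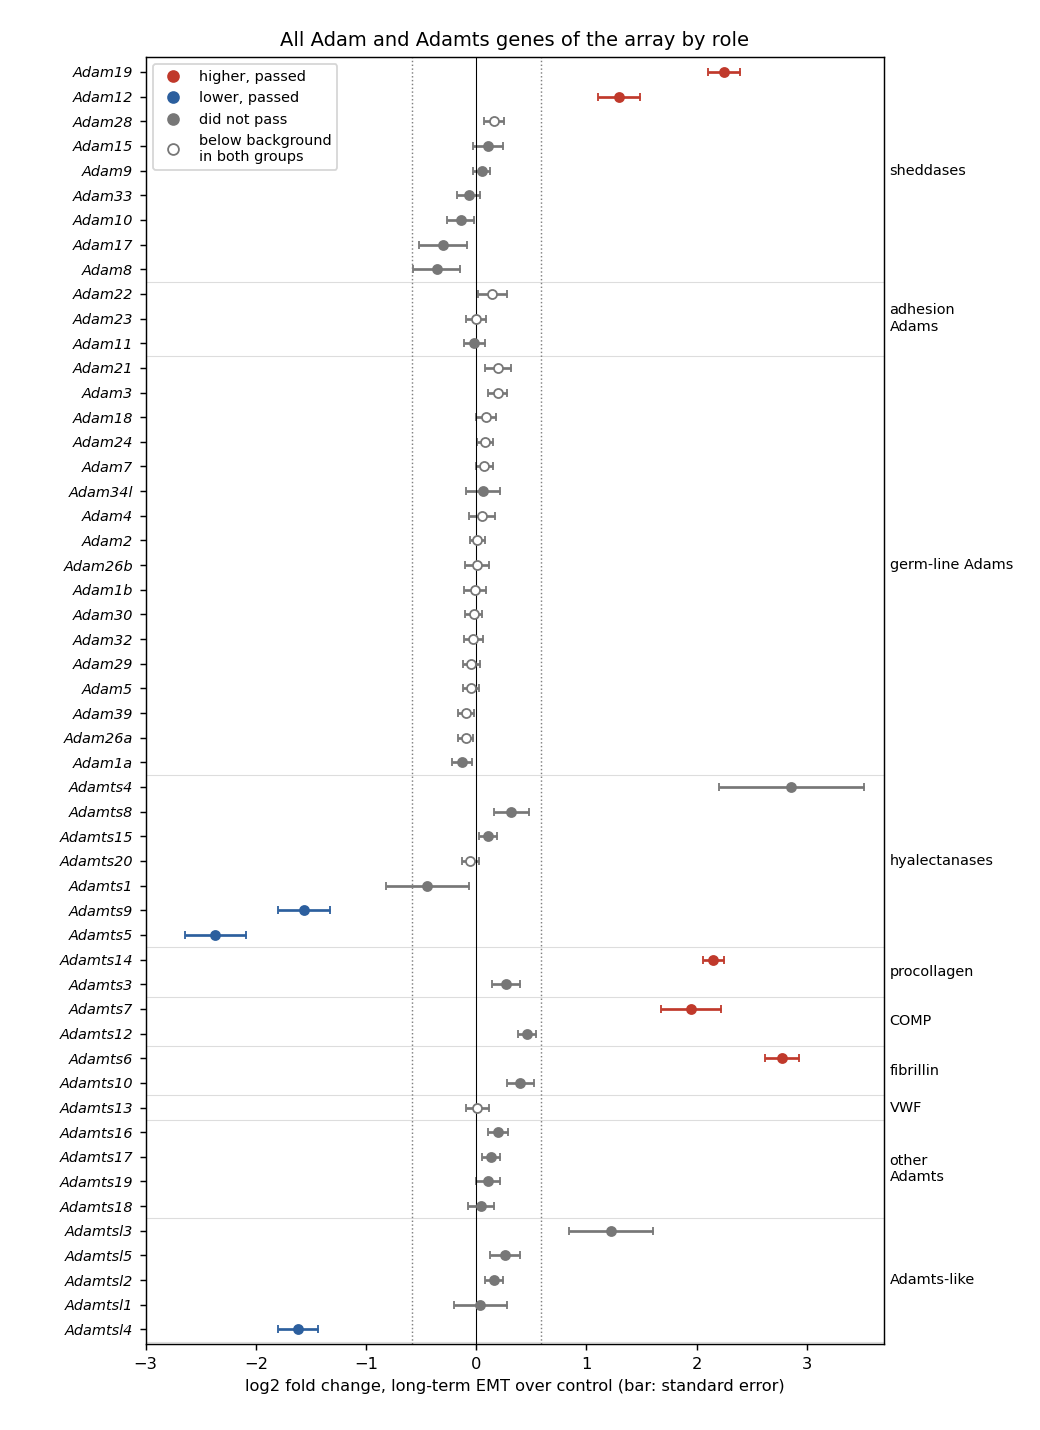
Each point is the log2 fold change of 1 gene, long-term EMT over control (x axis), with its standard error as a bar, and genes run down the page by role. Dotted lines mark a fold of 1.5 in each direction. Filled red points are the 5 genes that rose, filled blue points the 3 that fell, and open points the 20 genes below the background level in both groups, which sit close to 0.

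Promoter sequence is shown for 3 of the genes that passed, Adam19 and Adamts14, which rose, and Adamts9, which fell, since promoters of genes that moved in opposite directions can so be read side by side. Each window runs from 250 bases before to 50 bases after a RefSeq transcript start on GRCm38.p6, 300 bases in all. Windows were found for 4 of the 9 genes looked up, the 8 that passed and Adamts4, and there were 6 windows, 3 of them for alternative starts of Adam19. Motifs were searched on both strands: TGANTCA (AP-1), GTCTAGAC (the palindrome of Smad proteins), CAGACA (the short Smad element) and CACCTG (an E-box). Capitals mark matches. The Adam19 window is chr11:46055734-46056033 on the plus strand, that of Adamts14 is chr10:61273370-61273669 on the minus strand and that of Adamts9 is chr6:92943485-92943784 on the minus strand.
Adam19: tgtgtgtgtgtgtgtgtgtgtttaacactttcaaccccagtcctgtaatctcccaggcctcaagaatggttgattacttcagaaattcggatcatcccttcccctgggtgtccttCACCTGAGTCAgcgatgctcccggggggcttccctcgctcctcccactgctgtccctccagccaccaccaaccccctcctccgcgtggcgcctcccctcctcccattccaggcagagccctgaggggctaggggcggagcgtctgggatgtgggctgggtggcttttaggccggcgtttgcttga
Adamts14: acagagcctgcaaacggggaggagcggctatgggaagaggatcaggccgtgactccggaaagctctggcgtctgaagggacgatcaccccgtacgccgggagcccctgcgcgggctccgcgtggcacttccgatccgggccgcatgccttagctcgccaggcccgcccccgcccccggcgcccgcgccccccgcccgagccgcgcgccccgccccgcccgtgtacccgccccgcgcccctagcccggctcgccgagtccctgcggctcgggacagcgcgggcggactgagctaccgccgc
Adamts9: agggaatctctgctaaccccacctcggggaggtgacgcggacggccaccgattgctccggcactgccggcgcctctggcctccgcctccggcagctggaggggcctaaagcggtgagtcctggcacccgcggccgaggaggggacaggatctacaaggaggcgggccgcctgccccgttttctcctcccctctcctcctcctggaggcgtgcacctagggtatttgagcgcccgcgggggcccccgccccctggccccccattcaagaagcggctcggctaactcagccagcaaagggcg
In the Adam19 window a CACCTG and a TGANTCA match overlap and form 1 run of capitals. A CACCTG match was also present in 1 of the other Adam19 windows. The window shown is 1 of the 3 of Adam19 and the only one of the 6 windows with a TGANTCA match. It does not stand for the other starts of the gene. The windows of Adamts14, Adamts9 and Adamtsl4 held none of the 4 motifs. Of all 32851 RefSeq windows of this length, 7.81% held TGANTCA, 0.213% GTCTAGAC, 21.0% CAGACA and 20.2% CACCTG. The GC content was 60.3% in the Adam19 window shown, 76.7% for Adamts14, 70.0% for Adamts9 and 68.0% for Adamtsl4, and the median of all windows was 52.7%. These are matches of letters and were not tested as binding sites.

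Among the 9 membrane sheddases, the Adams with an active protease in many tissues, 2 rose, none fell and 7 did not pass. Adam19 (meltrin beta), which can shed neuregulins, had log2 values of 7.97, 7.87 and 8.12 in long-term EMT cells, against 5.45, 5.94 and 5.82 in control cells. The arrays of the groups were far apart, and the log2 fold change was 2.25 ± 0.15 (SE, n = 3 each), a fold of 4.76, with an adjusted p of 0.00239. Adam12 (meltrin alpha), which can shed heparin-binding EGF and binds integrins and syndecans, had 9.71, 10.07 and 10.03 in long-term EMT cells and 8.27, 8.71 and 8.94 in control cells. Its groups did not overlap either, but the change was smaller, 1.30 ± 0.19 (SE), a fold of 2.46, with an adjusted p of 0.0286. Adam12 no longer passed without long-term EMT replicate 1, 2 or 3 or without control replicate 2, with adjusted p of 0.0712, 0.137, 0.128 and 0.115, while Adam19 passed with each of the 6 arrays left out.

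The sheddases best known for wide activity gave values with overlapping groups. Adam10, which cuts Notch receptors and E-cadherin, had 10.12, 10.26 and 10.09 in long-term EMT cells and 10.50, 10.31 and 10.08 in control cells, a log2 fold change of -0.14 ± 0.12 (SE, adjusted p = 0.731). Adam17, which releases tumour necrosis factor and several ErbB ligands, had 10.23, 9.90 and 9.68 in long-term EMT cells and 10.65, 10.09 and 9.97 in control cells, a log2 fold change of -0.30 ± 0.22 (SE, adjusted p = 0.661). Control replicate 1 was the highest array for both genes, and over the fits with 1 array left out the difference ran from -0.25 to -0.04 for Adam10 and from -0.45 to -0.09 for Adam17, closest to 0 without that array. A further probe set that the annotation gives to both Iah1 and Adam17 was left out of the gene's value, and had 7.48, 7.67 and 7.54 in long-term EMT cells and 7.15, 7.28 and 7.31 in control cells (adjusted p = 0.176). Adam8, known from myeloid cells, differed by -0.36 ± 0.21 (SE), with 8.97, 8.40 and 9.14 in long-term EMT cells and 9.44, 9.05 and 9.09 in control cells. The widely expressed Adam9 and Adam15 differed by 0.05 ± 0.08 and 0.11 ± 0.14 (SE), and Adam9 lay between 11.08 and 11.21 in long-term EMT cells and between 11.05 and 11.14 in control cells. Adam33, whose human gene is linked to asthma, differed by -0.07 ± 0.10 (SE), and Adam28, a lymphocyte Adam, was below the background level in both groups.

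The remaining Adam genes were mostly at background. The adhesion Adams without protease activity, Adam11, Adam22 and Adam23, are neural proteins, and Adam22, a receptor for the secreted protein Lgi1, showed the widest difference among them, 0.15 ± 0.13 (SE, adjusted p = 0.728). Its values were 3.34, 3.81 and 3.55 in long-term EMT cells and 3.44, 3.37 and 3.45 in control cells, all below the background level, as was Adam23. Of the 17 measured Adams known mainly from testis or epididymis, none passed, 15 were below the background level in both groups, and log2 fold changes ran from -0.13 to 0.20. Adam21 was at the upper end of that range with 3.85, 3.89 and 4.22 in long-term EMT cells and 3.71, 3.82 and 3.84 in control cells (0.20 ± 0.12, SE, adjusted p = 0.573). Adam1a, a subunit of the sperm protein fertilin, and Adam34l were the germ-line Adams above the background level.

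**Figure D2:**
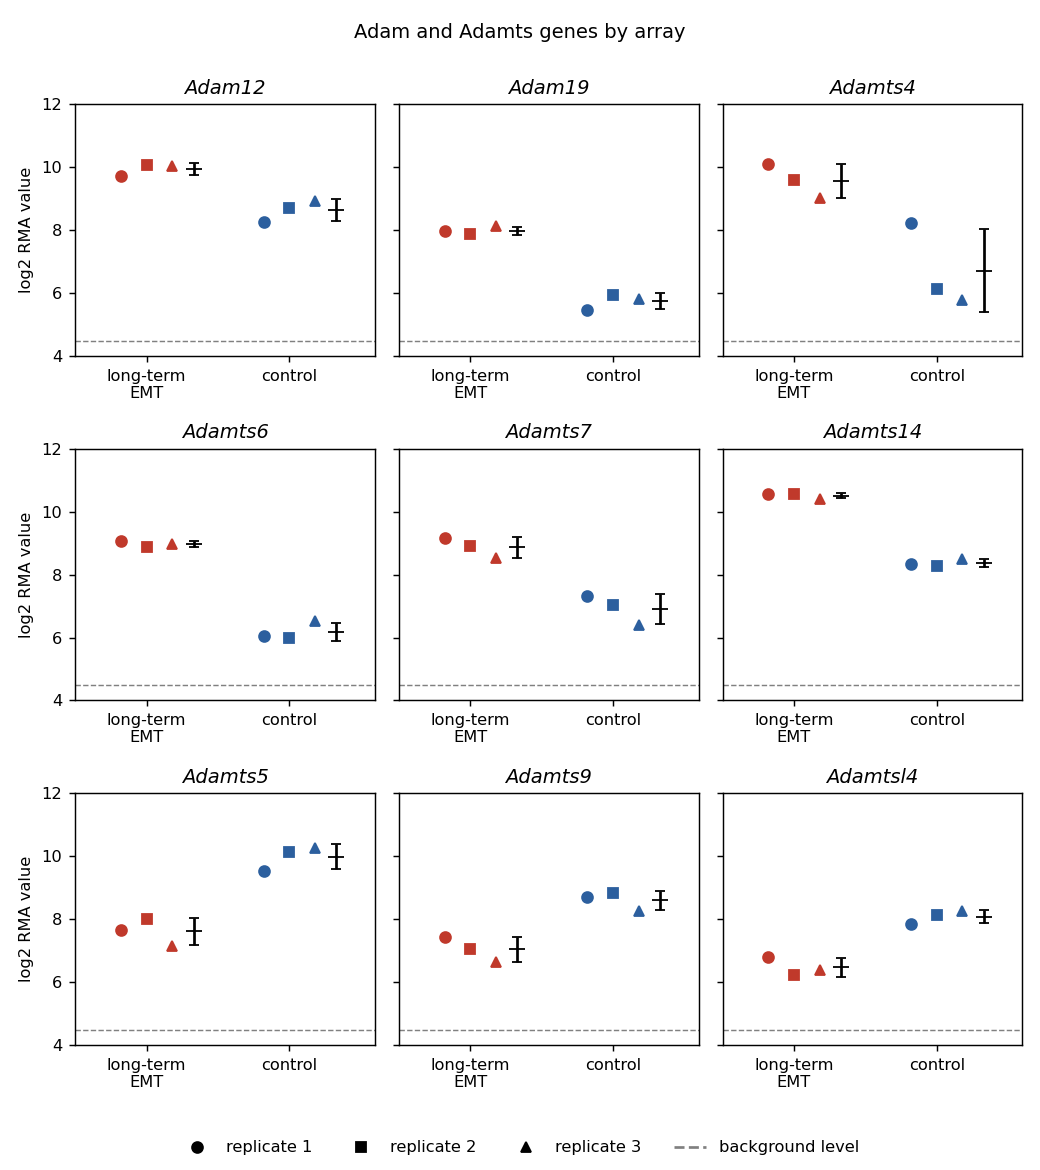
Log2 RMA values (y axis) of 9 Adam and Adamts genes in the 3 long-term EMT arrays (red, left of each panel) and the 3 control arrays (blue, right), with 1 symbol per replicate. The black mark and bar are the mean and SD, and a dashed line shows the background of 4.475. Control replicate 1 of Adamts4, at 8.23, stands well above the other control arrays at 6.14 and 5.78.

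The 7 hyalectanases, which cut aggrecan, versican and related proteoglycans, went in different directions, and 2 of them fell, none rose and 5 did not pass. Adamts5, the main aggrecanase of mouse cartilage, had 7.65, 8.02 and 7.16 in long-term EMT cells, against 9.53, 10.13 and 10.28 in control cells. Every long-term EMT array was well below every control array, and Adamts5 fell by 2.37 ± 0.28 on the log2 scale (SE, n = 3 each), 5.17-fold, with an adjusted p of 0.0132. Without long-term EMT replicate 1 or control replicate 2 the adjusted p was 0.0671 or 0.0725, and the difference stayed between -2.60 and -2.15 over the 6 fits with 1 array left out.

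Adamts9, which acts on versican and is needed in mouse development, had 7.42, 7.06 and 6.64 in long-term EMT cells and 8.72, 8.83 and 8.25 in control cells. The groups did not overlap, and the gene fell by 1.56 ± 0.24 (SE) on the log2 scale, 2.95-fold, with an adjusted p of 0.0313. All 6 of its probe sets passed in the same direction, with differences from -1.96 to -1.44 and adjusted p from 0.00754 to 0.0313. The call of the probe set used here was close to the threshold, since it held without control replicate 3 (0.037) and was lost without long-term EMT replicate 1, 2 or 3 (0.0527, 0.139 and 0.0922) and without control replicate 1 or 2 (0.0541 and 0.128).

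Adamts4, a second aggrecanase, had the highest log2 fold change of the family and did not pass. Its values were 10.09, 9.61 and 9.02 in long-term EMT cells and 8.23, 6.14 and 5.78 in control cells, so the groups did not overlap, but the control arrays spread widely. The log2 fold change was 2.86 ± 0.66 (SE), a fold of 7.24, with an adjusted p of 0.106. Without control replicate 1, which lay 2.27 above the mean of the other two control arrays, the change was 3.61 and the adjusted p 0.00642, and with any other array left out the adjusted p was between 0.199 and 0.319.

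The other hyalectanases had smaller differences. Adamts1, needed for ovulation in mice, had 7.91, 7.42 and 7.75 in long-term EMT cells and 7.31, 8.27 and 8.83 in control cells, a log2 fold change of -0.44 ± 0.38 (SE, adjusted p = 0.717). Here control replicate 1 was the lowest array, 1.24 below the other two controls, and with 1 array left out the difference ran from -0.86 (without control replicate 1) to -0.10 (without control replicate 3). Adamts8, an inhibitor of blood vessel growth, had 6.02, 5.86 and 6.37 in long-term EMT cells and 5.86, 5.55 and 5.88 in control cells (0.32 ± 0.16, SE), and its other probe set differed by 0.42. Adamts15 differed by 0.11 ± 0.08 (SE), and Adamts20, the gene of the belted coat pattern in mice, was below the background level in both groups.

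**Figure D3:**
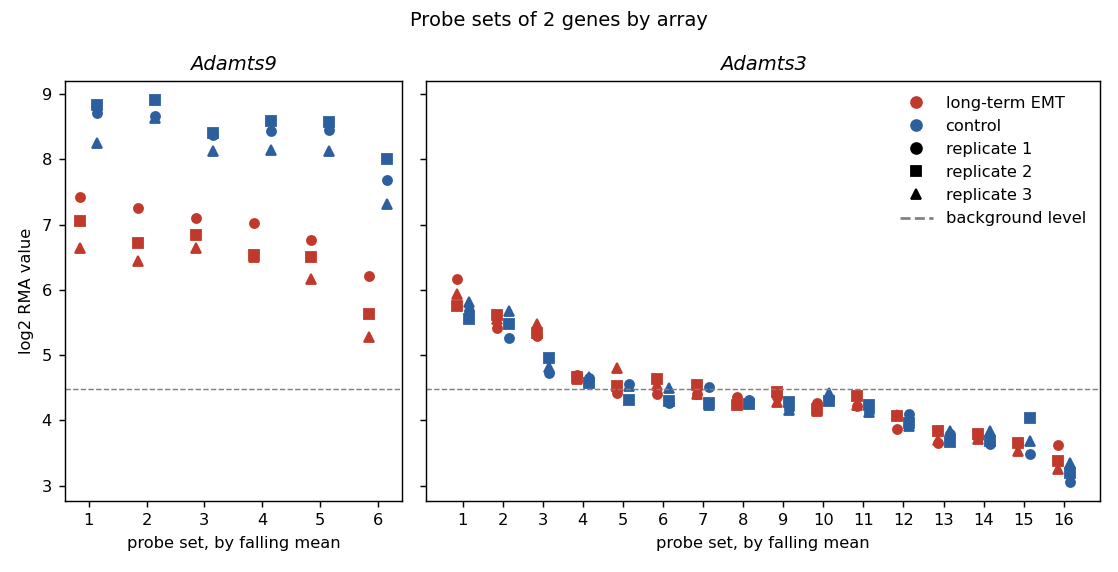
Log2 RMA values (y axis) in each long-term EMT array (red) and control array (blue) for the 6 probe sets of Adamts9 and the 16 probe sets of Adamts3, ordered by falling mean (x axis), with the background level of 4.475 as a dashed line. All 6 Adamts9 probe sets show the long-term EMT arrays below the control arrays, while of those of Adamts3 only 5 have a mean above the background level.

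Both measured procollagen N-propeptidases, which trim the amino ends of fibrillar procollagens, had positive log2 fold changes, and 1 of them rose. Adamts14 had 10.58, 10.56 and 10.41 in long-term EMT cells, against 8.34, 8.26 and 8.50 in control cells. Replicates of each group were close together, and the log2 fold change of 2.15 ± 0.10 (SE, n = 3 each), a fold of 4.44, had the lowest adjusted p of the family, 0.00104. Adamts3, which also activates the lymphatic growth factor Vegfc, had 6.17, 5.76 and 5.93 in long-term EMT cells and 5.68, 5.56 and 5.81 in control cells (0.27 ± 0.13, SE, adjusted p = 0.45). None of its 16 probe sets passed, and differences ran from -0.16 to 0.54. The probe set at 0.54 had 5.29, 5.34 and 5.48 in long-term EMT cells and 4.72, 4.95 and 4.82 in control cells. Its groups did not overlap, but its adjusted p was 0.0502 and its fold of 1.45 was under the threshold. Adamts2 has no probe set of its own in the annotation used here and was not analysed here.

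Of the 2 proteases of cartilage oligomeric matrix protein and the 2 of fibrillin microfibrils, 1 of each pair rose. In all of them every long-term EMT array was above every control array, as for 12.6% of all genes. Of all genes 1.47% rose, and pairs are too small for a comparison of shares. Adamts7, which cuts that cartilage protein, had 9.17, 8.91 and 8.52 in long-term EMT cells and 7.31, 7.05 and 6.39 in control cells, with no overlap. It rose by 1.95 ± 0.27 (SE) on the log2 scale, a fold of 3.86, with an adjusted p of 0.0239. The call was lost without long-term EMT replicate 1, 2 or 3 (0.0935, 0.119 and 0.0645) and without control replicate 2 (0.0977). Adamts12, its closest relative, had 5.42, 5.45 and 5.33 in long-term EMT cells and 5.01, 4.97 and 4.85 in control cells. Those groups did not overlap either, but the change of 0.46 ± 0.08 (SE), a fold of 1.37, had an adjusted p of 0.0512 and was under the fold threshold.

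Adamts6, which acts at fibrillin microfibrils, had 9.06, 8.87 and 8.96 in long-term EMT cells, against 6.05, 5.99 and 6.52 in control cells. This was the highest log2 fold change among the genes that passed, 2.78 ± 0.15 (SE, n = 3 each), a fold of 6.85, with an adjusted p of 0.00144. Adamts10, its paralog, whose human gene is mutated in Weill-Marchesani syndrome, had 7.81, 7.99 and 7.82 in long-term EMT cells and 7.70, 7.31 and 7.41 in control cells. The arrays did not overlap, and the difference was 0.40 ± 0.12 (SE, adjusted p = 0.217). Adamts6, Adamts14 and Adam19 were the 3 genes that passed with each of the 6 arrays left out, with log2 fold changes from 2.68 to 2.94 for Adamts6, from 2.10 to 2.22 for Adamts14 and from 2.11 to 2.35 for Adam19.

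**Figure D4:**
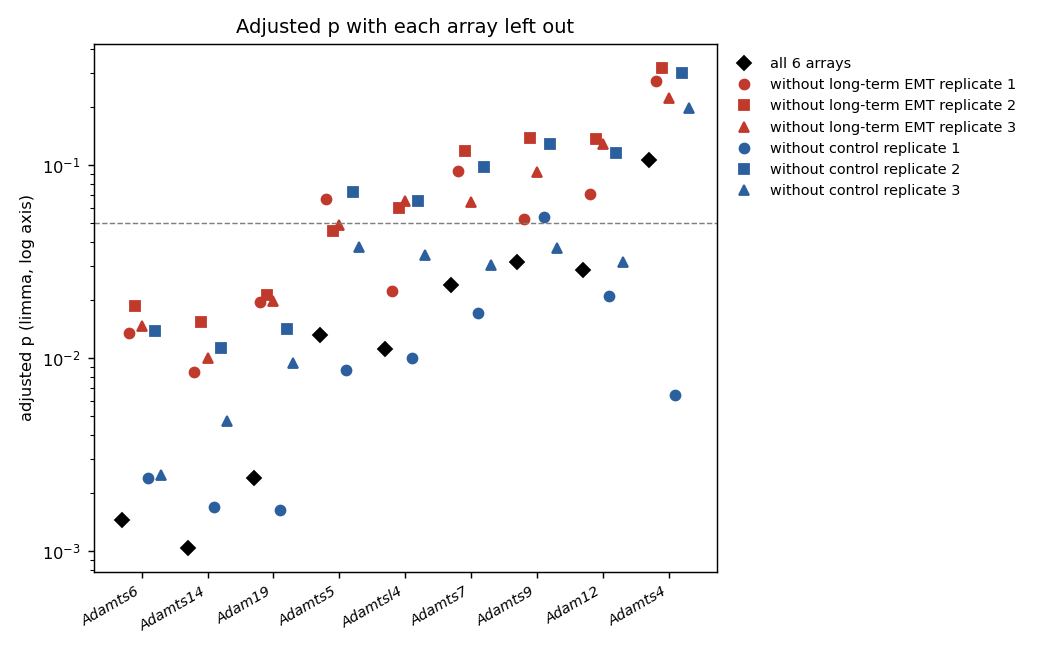
Adjusted p of limma (y axis, log scale) for the 8 genes that passed and for Adamts4 (x axis), with all 6 arrays (black diamonds) and with 1 array left out (red, a long-term EMT array; blue, a control array). The dashed line is 0.05. All points of Adamts6, Adamts14 and Adam19 lie below it, and for Adamts4 only the point without control replicate 1, at 0.00642, does.

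No other Adamts protease passed. Adamts13, the protease of von Willebrand factor, had 4.08, 4.41 and 4.21 in long-term EMT cells and 4.21, 4.30 and 4.16 in control cells, below the background level in both groups, and the difference of 0.01 ± 0.11 (SE, adjusted p = 0.985) had no direction that held under other normalizations. Adamts16 had 4.55, 4.74 and 4.80 in long-term EMT cells and 4.46, 4.53 and 4.52 in control cells, close to the background level (0.19 ± 0.09, SE, adjusted p = 0.442). Adamts17, Adamts18 and Adamts19 differed by 0.13, 0.04 and 0.11, and none of the 5 probe sets of Adamts17 passed.

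Of the 5 Adamts-like genes measured, 1 fell, none rose and 4 did not pass. Adamtsl4, whose human gene is mutated in displaced lenses and whose protein binds fibrillin, had 6.79, 6.23 and 6.37 in long-term EMT cells, against 7.84, 8.14 and 8.27 in control cells. The groups were clearly apart, and the gene fell by 1.62 ± 0.18 (SE) on the log2 scale, 3.07-fold, with an adjusted p of 0.0112. It did not pass without long-term EMT replicate 2 or 3 (0.0602 and 0.0654) or control replicate 2 (0.0652). Adamtsl3, known as punctin-2, had 7.97, 8.54 and 8.45 in long-term EMT cells and 7.76, 7.27 and 6.27 in control cells. All long-term EMT arrays were above the control arrays, but the controls ranged so widely that the log2 fold change of 1.22 ± 0.38 (SE) had an adjusted p of 0.224. Adamtsl1, Adamtsl2 and Adamtsl5 differed by 0.04, 0.16 and 0.26.

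The inhibitors of these proteases were divided, with 1 of 7 higher, 1 lower and 5 that did not pass. Timp3, the matrix-bound inhibitor that blocks Adam17, Adamts4 and Adamts5, had 9.68, 8.20 and 8.77 in long-term EMT cells, against 11.90, 11.55 and 11.75 in control cells. All long-term EMT arrays were below all control arrays, and Timp3 fell by 2.85 ± 0.36 (SE) on the log2 scale with an adjusted p of 0.0165, which was 0.0862, 0.0743 and 0.0505 without long-term EMT replicate 3, control replicate 2 and control replicate 3. Timp1, which blocks Adam10, had 11.93, 11.52 and 11.52 in long-term EMT cells and 10.94, 10.76 and 10.88 in control cells. It rose by 0.80 ± 0.13 (SE, adjusted p = 0.0416), a call that was lost with any of the 6 arrays left out, at adjusted p from 0.0536 to 0.163. Timp2 had 11.38, 11.33 and 11.25 in long-term EMT cells and 11.60, 11.56 and 11.67 in control cells, a difference of -0.29 ± 0.08 (SE, adjusted p = 0.153). Timp4 was close to the background level and differed by -0.08 ± 0.07 (SE).

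The convertases and escorts that mature Adam proteases gave 1 gene higher, 1 lower and 10 that did not pass. Pcsk7, of the same list, has no probe set of its own in the annotation used here. Pcsk6, a convertase of the furin family, had 4.97, 4.91 and 5.44 in long-term EMT cells, against 6.82, 7.06 and 6.96 in control cells. The groups were well separated, and Pcsk6 fell by 1.84 ± 0.16 (SE) on the log2 scale, with an adjusted p of 0.00574, and passed with each array left out. Furin itself had 10.56, 10.70 and 10.67 in long-term EMT cells and 10.08, 9.91 and 9.85 in control cells. It rose by 0.70 ± 0.09 (SE, adjusted p = 0.0203), and with 1 array left out it passed only without control replicate 1 (0.0141), the highest adjusted p being 0.108. Rhbdf1, Rhbdf2 and Frmd8, which bring Adam17 to the surface, and the tetraspanins that escort Adam10 did not pass. Tspan5, a tetraspanin of that group, had an adjusted p of 0.0239, but its difference of -0.55 was under the fold threshold.

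**Figure D5:**
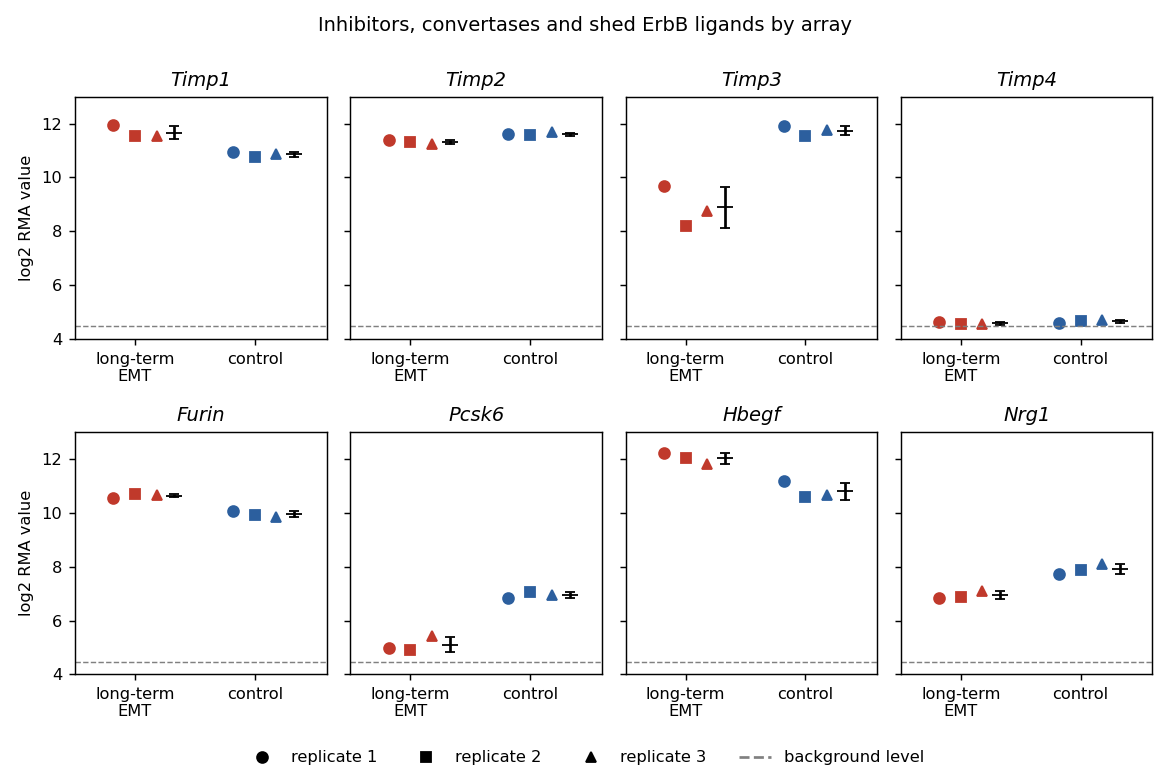
Log2 RMA values (y axis) of the 4 Timp inhibitors, the convertases Furin and Pcsk6 and the shed ErbB ligands Hbegf and Nrg1 in the 3 long-term EMT arrays (red, left) and the 3 control arrays (blue, right), with mean and SD in black and the background level of 4.475 as a dashed line. Timp3, Pcsk6 and Nrg1 lie lower in every long-term EMT array than in any control array, and Timp1, Furin and Hbegf lie higher.

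Membrane proteins that Adams release were next compared. Of 7 measured ErbB ligands, 1 rose, 1 fell and 5 did not pass. Areg (amphiregulin) has no probe set of its own in the annotation used here. Hbegf, heparin-binding EGF, had 12.23, 12.04 and 11.82 in long-term EMT cells and 11.17, 10.57 and 10.65 in control cells, and it rose by 1.23 ± 0.19 (SE, adjusted p = 0.0318). The ErbB3 and ErbB4 ligand Nrg1 had 6.84, 6.87 and 7.10 in long-term EMT cells and 7.74, 7.89 and 8.09 in control cells, and it fell by 0.97 ± 0.12 on the log2 scale (SE, adjusted p = 0.017). Neither pair of groups overlapped. With 1 array left out, Hbegf passed only without control replicate 1 (0.00872) and Nrg1 only without control replicate 1 or 3 (0.0142 and 0.0405).

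Of 26 other membrane substrates, 3 rose (11.5%) and 5 fell (19.2%), where 1.47% and 1.49% of all genes did. Their median log2 fold change was -0.34, beside 0.02 over all genes. The list was chosen with earlier results of these data known. It holds genes that the study reported as changed, among them Cdh1, Notch1, Jag1 and Cdh5, so its counts do not describe Adam substrates in general. Cdh1 (E-cadherin) had 4.78, 4.31 and 4.34 in long-term EMT cells, against 10.27, 9.31 and 9.12 in control cells, and fell by 5.09 ± 0.31 (SE, adjusted p = 0.00195). Since 2 of the 3 long-term EMT arrays were below the background level, this size is a lower bound. Jag1, a Notch ligand, had 10.17, 9.72 and 10.03 in long-term EMT cells and 7.15, 6.40 and 6.73 in control cells, and rose by 3.21 ± 0.21 (SE, adjusted p = 0.00249). Both passed with each array left out. Notch1, the receptor that Adam10 cuts, had 7.35, 6.94 and 7.09 in long-term EMT cells and 9.53, 8.85 and 8.57 in control cells, and fell by 1.86 ± 0.25 (SE, adjusted p = 0.0228). The call for Notch1 was lost without long-term EMT replicate 1, 2 or 3 (0.072, 0.115 and 0.105) or control replicate 2 (0.0923). Cdh5 (VE-cadherin) had 7.93, 7.39 and 6.48 in long-term EMT cells and 4.81, 4.73 and 4.80 in control cells, and rose by 2.49 ± 0.34 (SE, adjusted p = 0.0232), a call lost without long-term EMT replicate 1 or 2 (0.0503 and 0.118) or control replicate 2 or 3 (0.106 and 0.0644).

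Many matrix proteins that Adamts proteases cut were below the background level. Of 17 proteoglycans and other matrix substrates, 2 rose, none fell and 9 were below the background level in both groups, among them aggrecan (Acan), versican (Vcan) and cartilage oligomeric matrix protein (Comp). Ccn2, a matricellular growth factor, had 12.07, 11.93 and 11.85 in long-term EMT cells, against 9.81, 10.15 and 10.51 in control cells, and rose by 1.79 ± 0.18 (SE, adjusted p = 0.00835), with adjusted p of 0.0574 without long-term EMT replicate 2 and 0.052 without control replicate 2. Sparc, a collagen-binding protein, had 13.05, 13.04 and 12.99 in long-term EMT cells and 12.14, 12.52 and 12.46 in control cells, and rose by 0.65 ± 0.12 (SE, adjusted p = 0.0496), but did not pass with any array left out. None of the 11 genes measured for fibrillar procollagens, fibrillin and latent TGF-β binding proteins passed. Fbn2, the only fibrillin measured, was below the background level in both groups. Fbn1 has no probe set of its own in the annotation used here. Col1a1, a procollagen, had 7.50, 7.15 and 7.06 in long-term EMT cells and 6.84, 6.44 and 6.58 in control cells (0.62 ± 0.16, SE, adjusted p = 0.137), and Ltbp2 differed by -0.51 ± 0.22 (SE, adjusted p = 0.39).

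Among the 6 arrays control replicate 1 stood apart, with correlations over all probe sets of 0.987 and 0.984 to the other two controls, which correlated at 0.995. In this array 581 of the 18820 genes were more than 1 above the mean of the other controls and 189 more than 1 below it, and of the 52 family members Adamts4 was above and Adamts1 below. The part of this array in the other results was not tested beyond the fits without it. Of 8 mammary epithelial markers 5 fell (Cdh1, Epcam, Cldn7, Krt7 and Krt14) and none rose, and the mean level of the list was 7.85 to 8.09 in long-term EMT arrays and 9.87 to 10.4 in control arrays, while Krt8 and Krt18 were between 12.46 and 12.88 in all 6. Marker lists of fibroblasts (7 genes), macrophages (7) and lymphocytes (6) had no gene that passed, and of 6 endothelial markers Cdh5 alone did. The mean level of the fibroblast list was 5.79 to 5.98 in long-term EMT arrays and 6.09 to 6.72 in control arrays, and that of the macrophage list was 5.88 to 6.24 in long-term EMT arrays and 5.87 to 6.36 in control arrays. For the endothelial list it was 4.50 to 4.75 in long-term EMT arrays and 4.20 to 4.22 in control arrays, and for the lymphocyte list 4.04 to 4.13 in long-term EMT arrays and 3.99 to 4.05 in control arrays. Below the background level in both groups were 1 of the 7 fibroblast markers (Lum), 2 of the 7 macrophage markers (Adgre1 and Itgam), 4 of the 6 endothelial markers and 4 of the 6 lymphocyte markers. The others were not, among them the fibroblast receptors Pdgfra and Pdgfrb, with means of 7.38 and 8.61 in long-term EMT cells and 8.33 and 9.92 in control cells, and the macrophage genes Cd68, Cd14 and Mrc1. Pdgfra, Pdgfrb and Dcn were lower in every long-term EMT array than in any control array without passing the test (adjusted p = 0.248, 0.126 and 0.376). The part of other cell types in the results was not tested.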

How the data were processed

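The authors hybridized the 6 samples to MoGene arrays and computed log2 values by Robust Multi-array Average (RMA) in Affymetrix Expression Console, whose version is not given in the sources used here. These deposited log2 values were used as they are, for 35556 probe sets, of which 21218 have 1 gene symbol in the platform annotation, 1881 several and 12457 none, and all were fitted. A probe set with several symbols was not assigned to any gene. The members and the lists of roles, partners and markers were chosen with earlier results of these data known. Groups were taken from the sample titles.

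Long-term EMT was compared with control in limma 3.58.1 (lmFit and eBayes, R 4.3.3), with p-values adjusted after Benjamini and Hochberg over the whole table. The code of the fit was tried on simulated data with independent normal errors. Such data lack the outlying control replicate 1, so the trial says nothing about the error rate in the real arrays. An exact two-sided permutation test of 3 against 3 cannot go below 0.1, so none was used. With 3 arrays per group, precision is limited by their number. The named genes are the members that passed, members in the study's lists of the largest changes, Adam10, Adam17, the member with the largest change of each role where none passed, the Timp genes, and from each partner list up to 4 genes that passed, or the 2 with the largest change where fewer than 2 passed. Other members are given to account for the whole family.

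The alternatives were a trended and robust variance prior, the methods' t-test with and without adjustment, treat, no fold threshold or a fold of 2, the replicate number as a block, a further quantile normalization, arrays set to equal medians, omission of dim probe sets, averaging of a gene's probe sets, other background percentiles and each array left out. All 52 members kept their symbol in RefSeq by gene ID. Promoter windows are from RefSeq (GRCm38.p6). A planned search for the zinc-binding site in protein sequences was not run. Adamts2, Adamtsl6 and the Adam genes with no probe set of 1 symbol were not analysed here.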

Additional observations from a re-analysis of the deposited data

How the results depend on the processing

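In the limma fit over all 6 arrays 5 Adam and Adamts genes were higher in long-term EMT and 3 lower. The methods' t-test with Benjamini-Hochberg adjustment left 2 higher and 0 lower (Adamts6 and Adamts14), and treat against a fold of 1.5 left 3 higher and 0 lower. Leaving out each array gave 3 to 6 higher and 0 to 3 lower, with 3 higher and 0 lower without control replicate 2, and 3 higher and 1 lower without long-term EMT replicate 1, 2 or 3. Under the remaining alternatives both counts stayed within 1.5 times. The sign of Adamts13 turned with quantile normalization again (-0.0194) and with equal array medians (-0.0183), and its difference ran from -0.0783 to 0.0867 with 1 array left out, negative without long-term EMT replicate 2 (-0.0783) or control replicate 3 (-0.0217). Over the 41 genes followed, 402 of 448 values under other alternatives and 186 of 246 with 1 array left out kept their direction and side of the threshold. Of the rest, 41 and 57 lost the call, 3 and 1 gained it and 2 and 2 changed sign, the last being those of Adamts13. The cause was not tested.

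Whether the replicate numbers pair the arrays cannot be told from these values. Deviations from the group means correlated at 0.188, 0.02 and 0.249 for same-numbered arrays and at -0.267 to 0.142 for the others. Long-term EMT replicates 1 and 3 correlated most with the control of their number, but replicate 2 correlated more with control replicate 1 (0.062). Deviations within a group of 3 arrays are tied to each other, so these correlations cannot decide the question. With the number as a block, 6 members were higher and 2 lower, Adamts4 passed (adjusted p = 0.0466) and Adamtsl4 (0.0526), Timp1 (0.0554), Furin (0.0738) and Sparc (0.0989) did not. Over all probe sets 353 were higher and 330 lower, and 43 to 638 and 26 to 688 over the alternatives, the lowest and highest being the methods' t-test with and without adjustment. Genes below the background level in both groups numbered 20, and 19 or 28 with the 90th or 99th percentile. With dim probe sets left out, members below the background level in both groups have no value. Signal near background limits what can be said of the germ-line Adams and of the proteoglycans.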
